A study of Homo sapiens with 29 samples.

Results

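NR0B1 knockdown was compared directly with SNW1 knockdown in H460 cells, an established human large cell lung carcinoma line that carries a KEAP1 mutation. The comparison used 6 of the 29 samples of the series. These were 3 libraries from cells with a short hairpin RNA against NR0B1 (shNR0B1) and 3 from cells with one against SNW1 (shSNW1), both taken 72 h after knockdown. Without the control hairpin in the contrast, a change that both hairpins caused to the same extent cancels, and what is left is the difference between them. All 6 libraries were made from polyadenylated RNA of the same line. The 3 libraries of H460 cells with a hairpin against GFP (shGFP, 72 h) did not enter the main test. Their levels are given beside some genes to place both knockdowns. They and 3 libraries of H460 cells with a hairpin against NRF2 (shNRF2, 72 h) entered a fit of 12 H460 libraries. That fit gave the differences against shGFP and an alternative to the main test. Genes were kept if they had at least 1 FPKM (fragments per kilobase of transcript, scaled for library depth) in at least 3 of the 6 libraries, which left 11548 of the 23710 gene symbols. The labels name the target of each hairpin and not its sequence, so effects of a hairpin on other transcripts and effects of its target cannot be told apart. They do not say whether the 3 libraries of a group came from separate cultures, so the spread behind each p-value may be technical.

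NR0B1, also called DAX1, is an orphan nuclear receptor without a classical DNA-binding domain, best known as a corepressor of steroidogenic factors in the adrenal gland and gonads. SNW1, also called SKIP, is a component of the catalytic spliceosome and also a coregulator of transcription with nuclear receptors, Notch and SMAD proteins. The proteins are known to bind each other in lung cancer cells with mutated KEAP1, together with the RNA-binding protein RBM45. KEAP1 normally marks the transcription factor NRF2 (gene NFE2L2) for degradation, and NR0B1 is itself expressed under NRF2 in such cells. The comparison therefore asks in which genes depletion of each partner gives a different transcriptome.

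The 6 libraries held 17137437 to 22362288 reads counted for gene symbols, recovered from the FPKM steps as described under the processing. The epithelial keratin KRT8 stood at 401 ± 3.44 FPKM in shNR0B1 and 419 ± 9.18 in shSNW1 (SD, n = 3 each). KRT18 (means 295 in shNR0B1 and 367 in shSNW1) and KRT19 were abundant too. KRT7 was low, with means of 5.61 FPKM in shNR0B1 and 3.92 in shSNW1, as was EPCAM at 1.29 and 1.28. The mesenchymal intermediate filament gene VIM stood at 844 ± 11.0 FPKM in shNR0B1 and 1052 ± 23.3 in shSNW1. The epithelial cadherin gene CDH1 was near 0 in both groups. All 13 markers of differentiated lung epithelium stayed under 1 FPKM, the surfactant gene SFTPC and the lung factor NKX2-1 among them. Of 15 immune markers, 13 stayed under 1 FPKM in both groups, and their summed level was 34.7 to 38.6 FPKM in shNR0B1 libraries and 29.0 to 30.1 in shSNW1 libraries. Of 12 fibroblast and endothelial markers, 7 stayed under 1 FPKM in shNR0B1 and 10 in shSNW1.

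Each target was lowest in its own knockdown. NR0B1 stood at 19.0, 18.3 and 17.2 FPKM in the shNR0B1 libraries and at 60.6, 60.2 and 58.8 FPKM in the shSNW1 libraries, with a mean of 47.6 FPKM in shGFP. SNW1 stood at 51.7, 51.9 and 49.2 FPKM in shNR0B1 and at 30.9, 34.3 and 31.5 FPKM in shSNW1, with a mean of 51.2 in shGFP. For both genes the 6 libraries separated completely, and about the control level of SNW1 was present in the shNR0B1 libraries. The log2 difference (shNR0B1 minus shSNW1 throughout, on the log2(FPKM + 1) scale, with its standard error) was -1.67 ± 0.0392 for NR0B1 (limma, Benjamini-Hochberg adjusted p = 9.08e-09) and 0.64 ± 0.0426 for SNW1 (limma adjusted p = 1.68e-06).

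The known partners differed little between the knockdowns. RBM45 stood at 8.98, 8.66 and 8.46 FPKM in shNR0B1 and at 8.21, 9.33 and 8.17 FPKM in shSNW1, ranges that overlap (difference 0.02 ± 0.0537, limma adjusted p = 0.736). Both groups were below its shGFP mean of 10.3 FPKM, by -0.22 for shNR0B1 minus shGFP and -0.24 for shSNW1 minus shGFP (limma adjusted p = 0.00816 and 0.00482). NFE2L2, the gene of NRF2, had 55.0, 55.6 and 52.7 FPKM in shNR0B1 libraries and 57.0, 58.3 and 56.5 FPKM in shSNW1 libraries (-0.07 ± 0.0307, limma adjusted p = 0.0618). This difference passed the threshold with median-ratio scaling over the 6 libraries (limma adjusted p = 0.0193), with voom on the reads (0.00746) and without shNR0B1 replicate 2 (0.0481). Its shNR0B1 libraries were all slightly lower, and both groups were above the shGFP mean of 43.3 FPKM. KEAP1 stood at 34.4, 33.6 and 34.7 FPKM in shNR0B1 and at 40.1, 37.0 and 38.1 in shSNW1, and was called lower in shNR0B1 (-0.16 ± 0.0356, limma adjusted p = 0.00302).

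**Figure D1:**
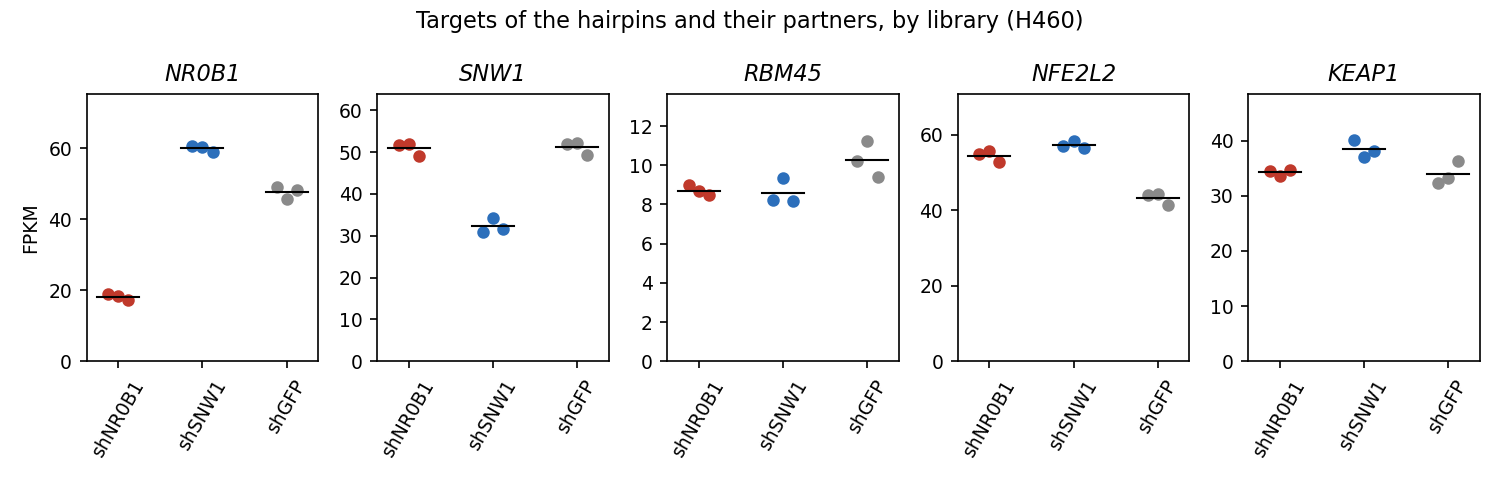
FPKM of the hairpin targets NR0B1 and SNW1 and of RBM45, NFE2L2 and KEAP1 in each H460 library (points) with the mean of 3 libraries (line), for shNR0B1, shSNW1 and shGFP. NR0B1 lies between 17.2 and 19.0 FPKM in shNR0B1 and between 58.8 and 60.6 in shSNW1, and RBM45 overlaps between those groups.

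Most genes differed between the knockdowns, but by small amounts. At an adjusted p under 0.05, limma called 8188 of 11548 genes, which is 70.9% of those tested: 4132 (35.8%) were higher and 4056 (35.1%) lower in shNR0B1. In 8588 genes (74.4%) the groups of 3 libraries did not overlap. Replicates were tight, and the middle 90% of genes lay between -0.62 and 0.67 on the log2 scale around a median of 0.00. Only 323 genes (2.8%) were called with a difference of at least 2 fold, 157 (1.36%) higher and 166 (1.44%) lower in shNR0B1. That count depends on the pseudocount of 1 FPKM: it was 608 with 0.1 FPKM and 82 with 5 FPKM. Shares of 35.8% higher and 35.1% lower are the background against which every count of list members below stands.

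**Figure D2:**
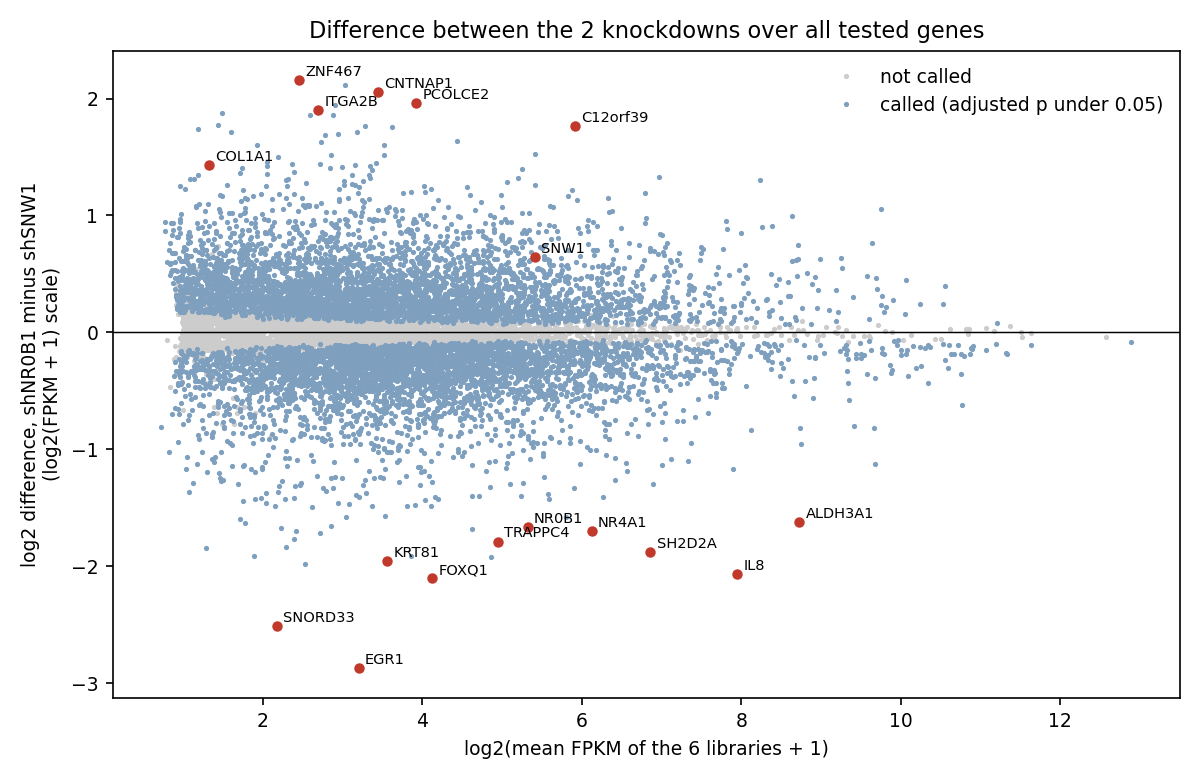
Difference between the knockdowns (y axis, log2(FPKM + 1) scale, shNR0B1 minus shSNW1) against mean level (x axis, log2 of mean FPKM + 1) for the 11548 tested genes, with called genes in blue and some named genes in red. EGR1 at -2.87 and ZNF467 at 2.16 mark the ends of the range of named genes with at least 5 FPKM in the higher group.

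The largest difference was in EGR1, which was lower in shNR0B1 than in shSNW1. EGR1, an immediate early zinc finger transcription factor, stood at 1.09, 1.30 and 1.23 FPKM in shNR0B1 and at 14.8, 14.8 and 15.9 FPKM in shSNW1 (-2.87 ± 0.0532, limma adjusted p = 7.16e-09). The shNR0B1 libraries were close to the shGFP mean of 1.72 FPKM, and the shSNW1 libraries stood well above it. FOXQ1, a forkhead transcription factor, stood at 5.65, 5.72 and 5.38 FPKM in shNR0B1 and at 26.9, 26.5 and 28.6 FPKM in shSNW1 (-2.10 ± 0.0416), on either side of the shGFP mean of 12.3. IL8, a neutrophil chemokine, stood at 101, 95.9 and 86.7 FPKM in shNR0B1 and at 400.1, 400.4 and 395 FPKM in shSNW1 (-2.07 ± 0.0479), with shGFP at 273. KRT81, a hair keratin whose reads may be shared with near-identical keratins, stood at 3.89, 3.71 and 3.89 FPKM in shNR0B1 and at 18.1, 17.8 and 17.5 in shSNW1 (-1.96 ± 0.0381). In all of these the lowest shSNW1 library was above the highest shNR0B1 library.

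For TRAPPC4 and VGF both knockdowns lay below the control, shNR0B1 the further. TRAPPC4, a subunit of the TRAPP vesicle tethering complex, stood at 13.9, 12.2 and 12.5 FPKM in shNR0B1 and at 44.4, 48.0 and 48.3 FPKM in shSNW1 (-1.79 ± 0.0522), with shGFP at 69.3. VGF, a neuropeptide precursor, stood at 4.94, 5.41 and 4.91 FPKM in shNR0B1 and at 22.5, 21.2 and 22.0 FPKM in shSNW1 (-1.91 ± 0.0448). Its shGFP mean was 42.3 FPKM, and no library of either knockdown reached it. SH2D2A, an adapter protein known from T cells, stood at 48.1, 51.2 and 46.9 FPKM in shNR0B1 and at 179, 179 and 186 FPKM in shSNW1 (-1.88 ± 0.0363), with shGFP at 109. The mean of shGFP lay between the knockdowns for 13 of the 15 genes with the largest negative difference and above both for 2. The genes were picked for a wide gap, into which another group falls more easily. The share over all tested genes was not counted. Of these 15 genes, 6 were small nucleolar RNAs, described below.

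The largest positive differences were in ZNF467, IL6R and CNTNAP1. ZNF467, a zinc finger protein, stood at 6.90, 8.44 and 8.67 FPKM in shNR0B1 and at 0.915, 1.00 and 1.12 FPKM in shSNW1 (2.16 ± 0.0811, limma adjusted p = 7.47e-08). IL6R, the interleukin 6 receptor, stood at 11.8, 13.1 and 12.1 FPKM in shNR0B1 and at 2.00, 2.20 and 2.05 in shSNW1 (2.11 ± 0.0519), with shGFP at 8.97. CNTNAP1, an axonal contact protein, stood at 16.5, 16.9 and 16.3 FPKM in shNR0B1 and at 3.38, 2.95 and 3.36 in shSNW1 (2.05 ± 0.0496). For each of them the groups were far apart relative to their spread. PCOLCE2, an enhancer of procollagen processing, stood at 23.9, 22.0 and 23.8 FPKM in shNR0B1 and at 5.26, 5.16 and 5.26 in shSNW1 (1.96 ± 0.0411), and SUCNR1, the succinate receptor, had 10.5, 11.2 and 10.1 FPKM in shNR0B1 and 2.47, 2.15 and 1.95 FPKM in shSNW1 (1.86 ± 0.0661). The shGFP means of PCOLCE2 and SUCNR1, 22.3 and 10.5 FPKM, were close to the shNR0B1 levels and above every shSNW1 library.

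MYL9, a regulatory myosin light chain, stood at 8.52, 8.32 and 8.61 FPKM in shNR0B1 and at 1.29, 1.63 and 1.98 FPKM in shSNW1 (1.86 ± 0.0863). LOXL1, a lysyl oxidase that crosslinks elastin, stood at 12.9, 15.3 and 14.1 FPKM in shNR0B1 and at 3.76, 3.15 and 3.37 FPKM in shSNW1 (1.77 ± 0.069). For MYL9 and LOXL1 the shGFP means, 0.949 and 2.12 FPKM, were below both knockdowns. C12orf39, which encodes the peptide hormone spexin, was the most abundant gene of this end, at 91.3, 96.9 and 89.3 FPKM in shNR0B1 and 26.4, 25.8 and 27.5 in shSNW1 (1.76 ± 0.0388). The basement membrane gene NID2 differed by 1.64 ± 0.0373, the TGF-beta binding membrane protein VASN by 1.76 ± 0.0759, the integrin chain ITGA2B by 1.90 ± 0.0812 and GLIPR1, a secreted CAP-family protein, by 1.95 ± 0.067. BST1, a surface ectoenzyme, differed by 1.71 ± 0.0608, CA11, a carbonic anhydrase-related protein, by 1.69 ± 0.077, and CD14, a lipopolysaccharide coreceptor and monocyte marker, by 1.70 ± 0.0408 (10.4, 10.8 and 10.9 FPKM in shNR0B1, 2.61, 2.61 and 2.60 in shSNW1). Of the immune markers CD14 and CD68 passed the filter, CD68 was not called (-0.01), and the pan-leukocyte gene PTPRC was at or near 0. The mean of shGFP lay between the knockdowns for 13 of the 15 genes with the largest positive difference and below both for 2. These genes too were picked for a wide gap, and the share over all tested genes was not counted.

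**Figure D3:**
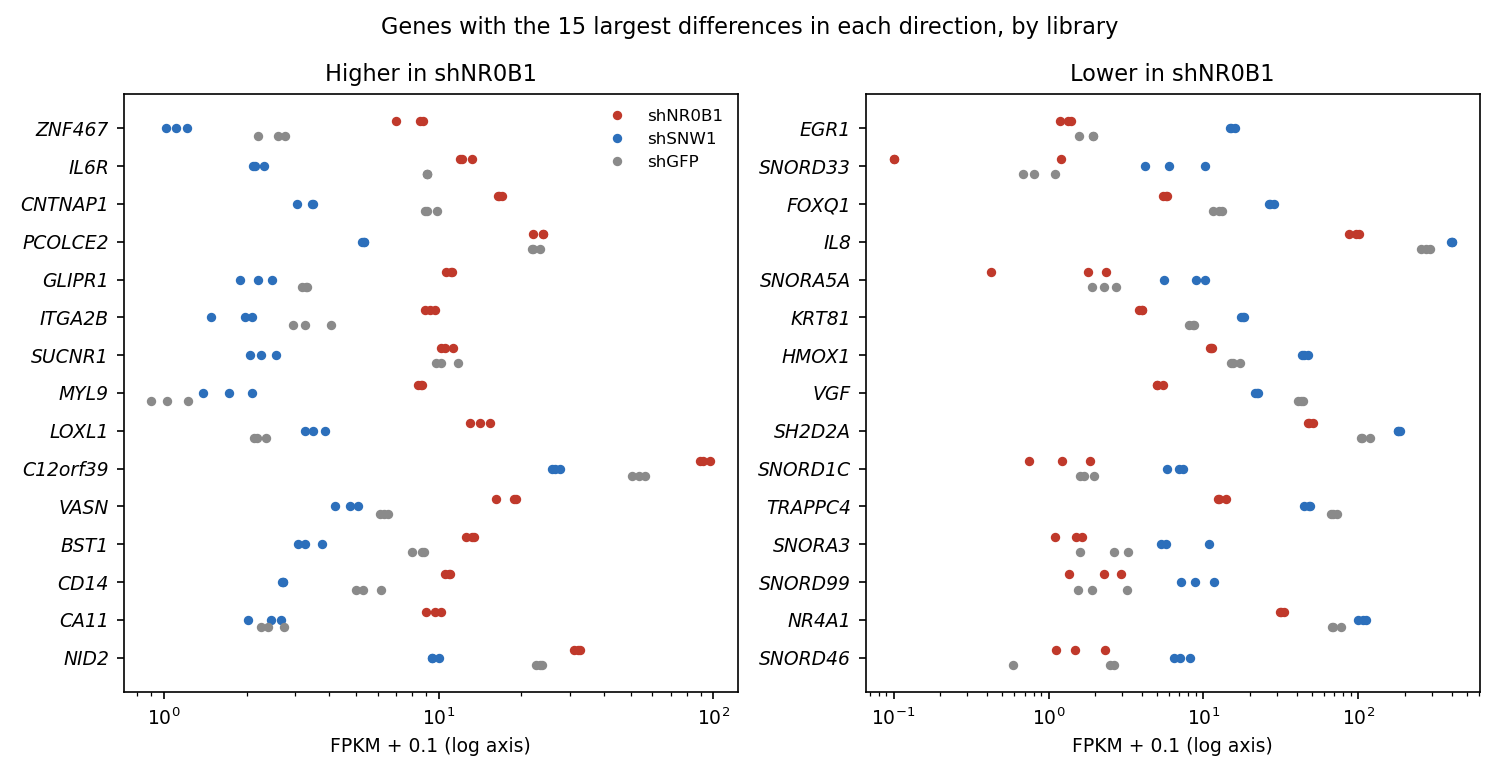
FPKM + 0.1 (log axis) in each library of shNR0B1, shSNW1 and shGFP for the 15 called genes with the largest difference in each direction. For each gene shown the shNR0B1 and shSNW1 points do not overlap, and the shGFP mean lies between them for 13 of 15 genes in each panel. The genes were picked for a wide gap between shNR0B1 and shSNW1.

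Small nucleolar RNAs (snoRNAs) guide the modification of ribosomal and spliceosomal RNA, and most human ones lie inside introns of host genes, from which they are released after splicing. Their symbols were lower in shNR0B1 than in shSNW1. Summed over all 370 symbols that RefSeq classes as snoRNA, the shNR0B1 libraries held 73.5, 76.8 and 71.5 CPM (reads scaled to a common library total) and the shSNW1 libraries 142.8, 138.1 and 137.8, with 93.4, 89.3 and 89.4 in shGFP. The groups did not overlap, and shGFP lay nearer to shNR0B1. This class was singled out after its values were seen. Of the 370 symbols 154 passed the filter, and limma called 5 of them higher and 108 lower in shNR0B1, a share of 70.1% lower against 35.1% of all tested genes. Some of the 154 passed through one group alone, but of the 100 with at least 1 FPKM in all 6 libraries, 3 were called higher and 78 lower.

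Read numbers behind single snoRNAs were small. SNORD33 had 0, 2 and 0 reads in the shNR0B1 libraries and 17, 10 and 6 in the shSNW1 libraries, so its difference of -2.51 ± 0.331 rests on few reads. SNORD68 had 17, 13 and 20 reads in shNR0B1 and 53, 46 and 53 in shSNW1 (-1.68 ± 0.14, limma adjusted p = 6.73e-06). SNORA18 had 21, 25 and 31 reads in shNR0B1 and 74, 71 and 54 in shSNW1 (-1.43 ± 0.0872, limma adjusted p = 1.04e-06). Each of these 3 separated the groups completely. The cluster member SNORD116-4 went the other way, with 56, 61 and 77 reads in shNR0B1 and 31, 33 and 29 in shSNW1. SNORD68, SNORA18 and SNORD116-4 were chosen for their read numbers after their values were seen. Mature snoRNAs carry no poly(A) tail, and whether these reads came from snoRNAs or from introns of host transcripts was not tested. The labels' library kit does not mark the strand.

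**Figure D4:**
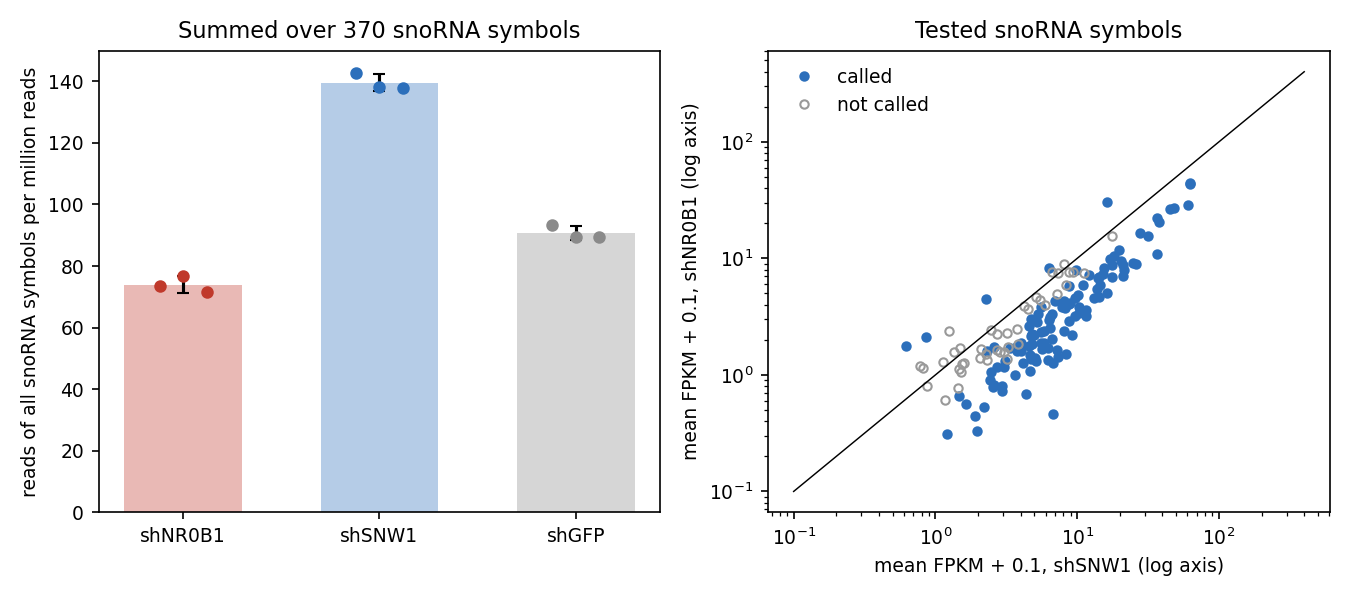
Left, summed CPM of 370 snoRNA symbols in each library (points), with mean and SD (bars, n = 3), for shNR0B1, shSNW1 and shGFP. Right, mean FPKM + 0.1 of the 154 tested symbols in shNR0B1 against shSNW1 (log axes, line of equality), where 108 of 154 symbols were called lower in shNR0B1.

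Spliced host genes of snoRNAs were also lower in shNR0B1. The list of snoRNA hosts and nuclear long noncoding genes had 2 of 18 tested members higher and 14 lower in shNR0B1 (median -0.48), and 1 was higher when any library but shNR0B1 replicate 2 was left out. SNHG15 stood at 28.2, 26.3 and 27.1 FPKM in shNR0B1 and at 56.3, 52.6 and 51.5 FPKM in shSNW1 (-0.95 ± 0.041). SNHG6 stood at 90.7, 92.0 and 101 FPKM in shNR0B1 and at 159.7, 164 and 159.8 FPKM in shSNW1 (-0.77 ± 0.0401). SNHG12 differed by -0.80 and EPB41L4A-AS1 by -0.68. EPB41L4A-AS1 is an antisense gene, and without strand its reads cannot be told from those of its partner. A fit of 12 H460 libraries gave differences against the control, with shNR0B1, shSNW1, shGFP and shNRF2 at 3 libraries each. Median log2 differences of the list were -0.35 for shNR0B1 minus shGFP and 0.09 for shSNW1 minus shGFP. Those contrasts share the control libraries. The architectural RNA NEAT1 of nuclear paraspeckles was the called member furthest in the other direction (0.62), and MALAT1 differed by -0.06 and was not called.

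Protein genes of the splicing machinery followed. Among factors of the PRPF19 complex and the catalytic core, where SNW1 acts, there were 2 of 28 tested members higher and 18 lower in shNR0B1 (median -0.23). SNW1 itself is one of the 2 that were higher, and 1 was higher without any one of shNR0B1 replicates 1 and 3 and shSNW1 replicates 2 and 3. RBM22, a core factor that contacts the catalytic RNA, stood at 18.7, 19.6 and 18.9 FPKM in shNR0B1 and at 29.4, 30.7 and 29.5 FPKM in shSNW1 (-0.62 ± 0.0339), and PRPF6, a tri-snRNP bridging protein, at 48.0, 47.8 and 51.5 FPKM in shNR0B1 and 73.5, 75.3 and 70.3 FPKM in shSNW1 (-0.56 ± 0.0388). Both groups were above the shGFP means of 12.3 and 42.3 FPKM, shSNW1 the further. PLRG1, a partner of CDC5L in that complex, differed by -0.44.

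Early spliceosome and tri-snRNP proteins had 1 of 27 tested members (28 listed) higher and 21 lower in shNR0B1 (median -0.27). The count higher was 2 without shNR0B1 replicate 1 and 0 without any one of the other 5 libraries. PRPF4, of the U4/U6 particle, stood at 20.6, 20.2 and 20.3 FPKM in shNR0B1 and at 40.7, 42.1 and 39.2 FPKM in shSNW1 (-0.96 ± 0.0341, limma adjusted p = 5.66e-08), on either side of the shGFP mean of 29.1. Its partner PRPF3 stood at 24.3, 24.3 and 21.8 FPKM in shNR0B1 and 41.9, 47.7 and 43.2 in shSNW1 (-0.89 ± 0.0572). SNRPA1 of the U2 particle differed by -0.62 and the tri-snRNP factor SART1 by -0.62. SR proteins, hnRNPs and their kinases, which choose splice sites, were split, with 8 of 28 tested members higher and 10 lower in shNR0B1 (median -0.03). The largest of those differences were small: SRSF4 -0.43, HNRNPL -0.38, the SR kinase SRPK2 -0.32 and HNRNPD -0.31.

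**Figure D5:**
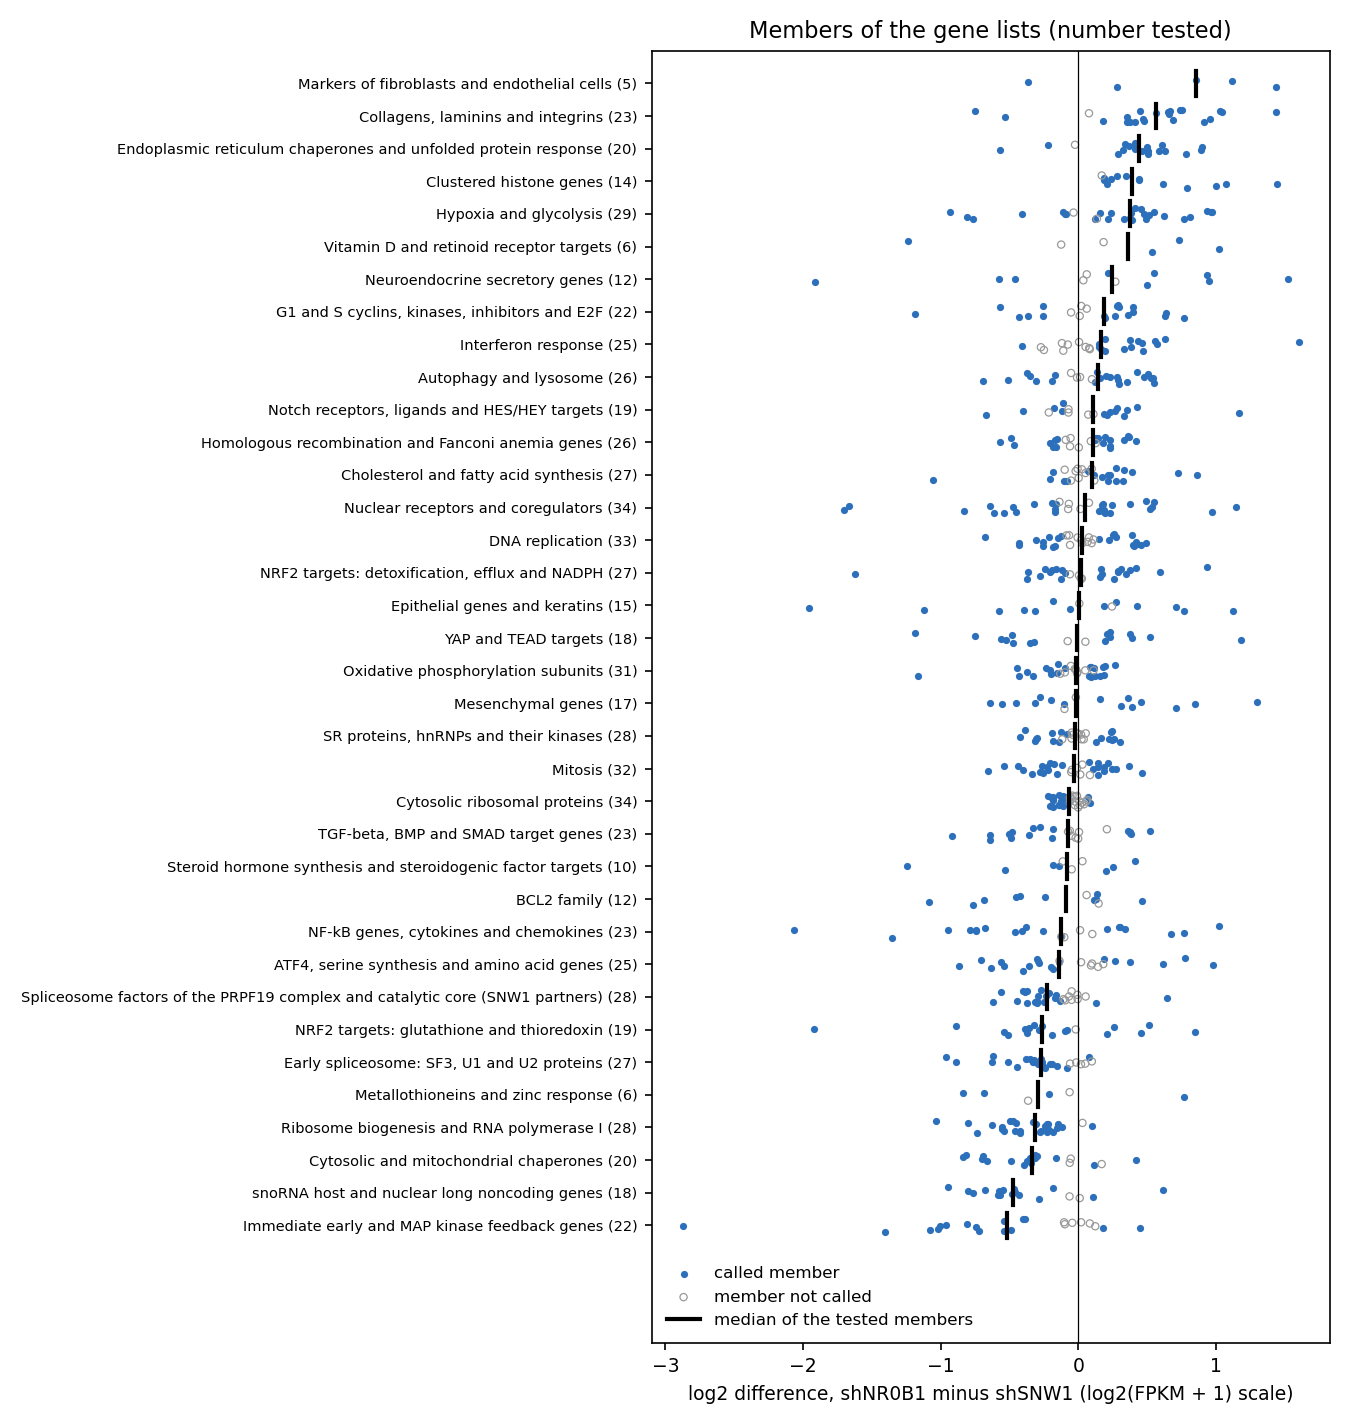
Log2 difference (shNR0B1 minus shSNW1) of every tested member of the gene lists described here with at least 5 tested members (points, filled where called) and the list's median (bar), ordered by median. Immediate early and MAP kinase feedback genes have a median of -0.52 over 22 genes, and collagens, laminins and integrins have a median of 0.57 over 23 genes, 4 of which passed the filter through shNR0B1 alone.

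BCL2 family genes, which set the threshold of apoptosis, were mixed, with 4 of 12 tested members (16 listed) higher and 6 lower in shNR0B1 (median -0.09). When any 1 library was left out, 1 to 3 were called higher: 1 without any one of shNR0B1 replicates 1 and 3 and shSNW1 replicates 2 and 3, and 2 without shSNW1 replicate 1. MCL1, a prosurvival member, stood at 89.7, 89.9 and 85.6 FPKM in shNR0B1 and at 182, 193 and 191 FPKM in shSNW1 (-1.08 ± 0.033), with shGFP at 188. The prosurvival BCL2L1 differed by -0.68 ± 0.037 and the proapoptotic BBC3 by -0.77 ± 0.0488, while BCL2L2 was higher in shNR0B1 (0.46 ± 0.0389). G1 and S phase regulators had 12 of 22 tested members (26 listed) higher and 6 lower in shNR0B1 (median 0.19). CDKN1A, the cyclin-dependent kinase inhibitor p21, stood at 57.9, 55.2 and 57.5 FPKM in shNR0B1 and at 133, 127 and 133 FPKM in shSNW1 (-1.19 ± 0.0315, limma adjusted p = 1.44e-08), with 46.0 in shGFP. The kinase inhibitors did not move together: CDKN1B, p27, stood at 26.0, 24.6 and 25.9 FPKM in shNR0B1 and at 14.8, 14.3 and 14.7 in shSNW1 (0.76 ± 0.0353), and CDKN2D (0.64) and CDKN2C (0.63) were also higher in shNR0B1, opposite to CDKN1A.

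Immediate early genes and the feedback genes of the MAP kinase pathway were lower in shNR0B1. The first are transcribed within minutes of growth factor signalling, and the second, such as dual-specificity phosphatases, switch the pathway off. The list had 2 of 22 tested members (28 listed) higher and 14 lower in shNR0B1 (median -0.52), and 5 were lower by at least 2 fold. Beside EGR1, PHLDA1 stood at 19.0, 20.1 and 19.8 FPKM in shNR0B1 and at 54.2, 52.3 and 54.3 FPKM in shSNW1 (-1.40 ± 0.0331), again with shNR0B1 near the shGFP mean of 21.8. DUSP1, a MAP kinase phosphatase, stood at 52.3, 57.6 and 51.6 FPKM in shNR0B1 and at 114, 115 and 115 in shSNW1 (-1.08 ± 0.0412), and FOSL1, an AP-1 subunit, at 13.3, 14.4 and 15.0 FPKM in shNR0B1 and 29.8, 29.1 and 30.7 FPKM in shSNW1 (-1.02 ± 0.0472). For these genes the shGFP means of 99.5 and 25.0 FPKM were nearer to shSNW1. Members of this list therefore differed in which knockdown lay away from the control.

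Cytokines, chemokines and NF-kB genes had 7 of 23 tested members (28 listed) higher and 12 lower in shNR0B1 (median -0.13). The chemokine CXCL2, which shares sequence with other CXCL genes, stood at 2.46, 2.98 and 3.25 FPKM in shNR0B1 and at 8.50, 9.67 and 8.74 FPKM in shSNW1 (-1.36 ± 0.0788), and IL6 at 29.2, 29.6 and 27.0 FPKM in shNR0B1 and 55.2, 59.0 and 54.4 FPKM in shSNW1 (-0.95 ± 0.0439). The adhesion molecule ICAM1 was opposite, with 2.99, 2.97 and 3.07 FPKM in shNR0B1 and 1.02, 0.915 and 0.992 in shSNW1 (1.02 ± 0.0539). The receptor IL6R and its ligand IL6 thus differed in opposite directions. Interferon response genes had 15 of 25 tested members (30 listed) higher and 1 lower in shNR0B1 (median 0.16). IFITM1 and IFITM3, antiviral membrane proteins of closely similar sequence, differed by 1.60 ± 0.108 and 0.63 ± 0.0427, IFI44 by 0.57 ± 0.0593 and IFIT1 by 0.55 ± 0.0861. IFITM1 stood at 4.13, 5.39 and 4.67 FPKM in shNR0B1 and at 0.623, 0.951 and 1.10 in shSNW1, close to the filter. IFIT1 passed the filter through shNR0B1 alone. Of the 22 members with at least 1 FPKM in all 6 libraries, which hold neither IFITM1 nor IFIT1, 13 were higher and 1 lower. IFITM3 was the abundant one, at 484, 515 and 521 FPKM in shNR0B1 and 342, 309 and 331 in shSNW1.

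Endoplasmic reticulum chaperones and genes of the unfolded protein response, which fold secreted proteins, were higher in shNR0B1. There were 17 of 20 tested members higher and 2 lower in shNR0B1 (median 0.44). PDIA3, a disulfide isomerase, stood at 394, 409 and 394 FPKM in shNR0B1 and at 210.3, 219 and 211 FPKM in shSNW1 (0.90 ± 0.0279, limma adjusted p = 3.2e-08), with shGFP at 301. The chaperone HYOU1 stood at 114, 119.9 and 116 FPKM in shNR0B1 and at 61.9, 61.3 and 63.6 in shSNW1 (0.89 ± 0.0299), with shGFP at 80.8. For both, the control lay between the knockdowns. DNAJB9, a cochaperone, differed by 0.78 and EDEM1, which sorts misfolded proteins for degradation, by 0.63. List medians against the control were 0.22 for shNR0B1 minus shGFP and -0.34 for shSNW1 minus shGFP. DNAJB11 and DNAJC3 were the 2 members called lower, both of them also luminal cochaperones (-0.57 and -0.22).

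Cytosolic and mitochondrial chaperones of the heat shock response differed the other way, with 2 of 20 tested members higher and 15 lower in shNR0B1 (median -0.33). HSP90AA1 stood at 626, 547 and 583 FPKM in shNR0B1 and at 1028, 1057 and 1003 FPKM in shSNW1 (-0.81 ± 0.0456), and HSPH1, a nucleotide exchange factor, at 40.0, 35.9 and 37.3 FPKM in shNR0B1 and 71.2, 68.5 and 64.6 FPKM in shSNW1 (-0.84 ± 0.0474). The shSNW1 libraries of HSP90AA1 were close to the shGFP mean of 1027 FPKM. CHORDC1, an HSP90 cochaperone, differed by -0.70 ± 0.0409 and DNAJA1, an HSP70 cochaperone, by -0.69 ± 0.0354.

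The promoters of both chaperone groups and of the immediate early list were searched for known response elements, and those of 6 genes are shown because these lists differed in one main direction each. Promoters are from RefSeq (GRCh38.p14), 250 bases before to 50 after the gene start, 5′ to 3′ on the gene's strand, with motif matches in capitals. The endoplasmic reticulum stress element was searched on both strands as CCAAT, any 9 bases and CCACG. It was found in 6 of the 19 matched promoters of the endoplasmic reticulum list, all 6 of genes higher in shNR0B1, and in 0.0806% of 27305 promoters. Of that list 17 of 20 tested members were higher, so the direction of these 6 adds nothing to it. The heat shock element was searched on both strands as GAA, TTC and GAA with any 2 bases between each. It was found in 3 of the 18 matched promoters of the cytosolic list, all 3 of genes lower in shNR0B1, and in 0.487% of all promoters. Of that list 15 of 20 tested members were lower. For the serum response element a single exact form was searched on both strands, ATATTA with CC before and GG after it. This form was found in 1 of the 16 matched promoters of the immediate early list, that of EGR1, and in 0.0366% of all promoters. Other forms of the element were not searched, and the EGR1 promoter holds another in lower case. A match is a sequence and no measure of binding. The lists were drawn up by function and picked for their direction. Neither the shares nor the directions of matched genes are therefore a test of these elements. Directions of genes outside the lists with a match were not counted.
HSPA5 (chr9:125241294-125241593, minus strand): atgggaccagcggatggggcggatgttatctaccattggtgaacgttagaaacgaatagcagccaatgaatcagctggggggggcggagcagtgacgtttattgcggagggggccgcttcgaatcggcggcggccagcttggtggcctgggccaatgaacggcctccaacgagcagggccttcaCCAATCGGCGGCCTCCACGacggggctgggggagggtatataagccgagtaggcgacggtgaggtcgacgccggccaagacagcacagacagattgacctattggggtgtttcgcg
CRELD2 (chr22:49918384-49918683, plus strand): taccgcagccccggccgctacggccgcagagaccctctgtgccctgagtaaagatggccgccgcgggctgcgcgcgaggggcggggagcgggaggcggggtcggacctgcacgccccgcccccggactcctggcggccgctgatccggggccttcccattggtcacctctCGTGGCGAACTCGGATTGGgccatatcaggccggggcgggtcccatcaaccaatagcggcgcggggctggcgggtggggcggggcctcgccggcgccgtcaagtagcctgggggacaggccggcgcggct
CALR (chr19:12938359-12938658, plus strand): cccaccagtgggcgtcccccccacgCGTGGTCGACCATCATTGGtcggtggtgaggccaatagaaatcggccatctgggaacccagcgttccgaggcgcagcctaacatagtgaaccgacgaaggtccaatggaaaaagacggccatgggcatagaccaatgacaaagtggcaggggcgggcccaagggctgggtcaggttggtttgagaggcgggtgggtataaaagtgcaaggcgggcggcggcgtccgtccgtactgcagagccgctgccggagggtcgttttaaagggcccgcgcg
CHORDC1 (chr11:90223000-90223299, minus strand): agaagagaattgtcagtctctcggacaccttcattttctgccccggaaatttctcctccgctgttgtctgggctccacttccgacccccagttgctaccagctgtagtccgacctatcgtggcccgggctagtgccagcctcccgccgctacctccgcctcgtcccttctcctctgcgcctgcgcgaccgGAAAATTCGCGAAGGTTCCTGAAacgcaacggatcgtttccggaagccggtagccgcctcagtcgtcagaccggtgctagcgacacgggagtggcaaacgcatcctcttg
DNAJA1 (chr9:33025023-33025322, plus strand): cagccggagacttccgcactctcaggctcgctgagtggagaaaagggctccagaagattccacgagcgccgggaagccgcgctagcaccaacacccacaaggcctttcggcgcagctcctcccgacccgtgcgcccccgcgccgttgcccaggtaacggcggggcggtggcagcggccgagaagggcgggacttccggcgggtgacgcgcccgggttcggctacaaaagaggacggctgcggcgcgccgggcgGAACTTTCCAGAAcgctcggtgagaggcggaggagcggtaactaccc
EGR1 (chr5:138465229-138465528, plus strand): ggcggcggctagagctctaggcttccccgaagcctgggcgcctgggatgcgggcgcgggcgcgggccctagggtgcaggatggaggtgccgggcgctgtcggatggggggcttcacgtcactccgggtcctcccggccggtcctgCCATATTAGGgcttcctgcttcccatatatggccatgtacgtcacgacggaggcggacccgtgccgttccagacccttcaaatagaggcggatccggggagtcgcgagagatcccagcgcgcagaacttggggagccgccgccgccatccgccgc

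Of the 3 genes shown for the endoplasmic reticulum stress element, HSPA5 encodes the luminal chaperone BiP and differed by 0.61, CRELD2, a secreted stress protein, by 0.51, and CALR, the calcium-binding chaperone calreticulin, by 0.50. They were chosen for the motif in their promoters, after their values were seen, and limma called all 3 higher. In CRELD2 and CALR the match is on the opposite strand. CHORDC1 holds 3 overlapping matches of the heat shock element and DNAJA1 holds 1.

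NRF2 targets did not follow one direction. NRF2 drives glutathione synthesis, thioredoxin recycling and detoxification, and is constitutively active where KEAP1 is mutated. The list of glutathione and thioredoxin targets had 5 of 19 tested members (20 listed) higher and 13 lower in shNR0B1 (median -0.26). It also holds HMOX1, the ferritin genes FTL and FTH1, and OSGIN1, which belong to neither system and were all called lower. Detoxification, efflux and NADPH targets had 12 of 27 tested members (28 listed) higher and 11 lower in shNR0B1 (median 0.02). Their list also holds KEAP1 (-0.16) and SQSTM1 (-0.37), both called lower, and MAFG (0.15), called higher, which belong to none of these groups. HMOX1, heme oxygenase, stood at 11.2, 11.0 and 11.2 FPKM in shNR0B1 and at 43.2, 44.5 and 47.0 FPKM in shSNW1 (-1.92 ± 0.0375), with shNR0B1 below and shSNW1 far above the shGFP mean of 15.8. GCLM, the regulatory subunit of glutamate-cysteine ligase, stood at 34.3, 32.1 and 32.5 FPKM in shNR0B1 and at 61.5, 62.6 and 62.1 in shSNW1 (-0.89 ± 0.0326). ALDH3A1, an aldehyde dehydrogenase, stood at 209, 203 and 208 FPKM in shNR0B1 and at 652, 635 and 632 FPKM in shSNW1 (-1.62 ± 0.0254), on either side of the shGFP mean of 409.8. These 3 enzymes and SRXN1, sulfiredoxin (-0.54 ± 0.0295), were lower in shNR0B1.

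The transporters named among the NRF2 targets were higher in shNR0B1. SLC7A11, the cystine importer, stood at 80.7, 81.4 and 77.6 FPKM in shNR0B1 and at 45.1, 43.2 and 43.4 FPKM in shSNW1 (0.85 ± 0.0313), with shSNW1 near the shGFP mean of 46.5. Its heavy chain partner SLC3A2 stood at 141, 152 and 148 FPKM in shNR0B1 and at 76.3, 71.1 and 75.1 in shSNW1 (0.98 ± 0.0373). The efflux pump ABCC3 stood at 32.8, 38.6 and 34.2 FPKM in shNR0B1 and at 17.6, 18.1 and 18.0 in shSNW1 (0.94 ± 0.0543), and ABCC2 differed by 0.42 ± 0.0274. CBR3, a carbonyl reductase, was also higher (0.60 ± 0.0572). ATF4 targets and amino acid genes, the list that holds SLC3A2, had 6 of 25 tested members (26 listed) higher and 13 lower in shNR0B1 (median -0.14). CHAC1, which degrades glutathione, and the stress factor ATF3 were lower in shNR0B1 (-0.86 ± 0.101 and -0.71 ± 0.0789), and VLDLR was higher (0.77 ± 0.0474).

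The list of nuclear receptors and their coregulators had 16 of 34 tested members (40 listed) higher and 13 lower in shNR0B1 (median 0.05). Among the 13 was NR0B1 itself, the target of the hairpin. Another was ALAS1 (-0.65), a heme synthesis enzyme that is neither a receptor nor a coregulator. NR4A1, an orphan receptor induced by many signals, stood at 31.0, 32.8 and 31.5 FPKM in shNR0B1 and at 106, 99.0 and 111 FPKM in shSNW1 (-1.70 ± 0.0443), with shGFP at 70.7. THRA, a thyroid hormone receptor, stood at 9.96, 10.9 and 10.8 FPKM in shNR0B1 and at 4.33, 4.09 and 4.22 in shSNW1 (1.15 ± 0.0467), and the corepressor NRIP1 at 10.0, 9.72 and 9.79 FPKM in shNR0B1 and 4.93, 4.31 and 4.41 FPKM in shSNW1 (0.97 ± 0.0505). The difference of NR4A1 was close to that of NR0B1 itself (-1.67). Steroid synthesis genes, the classical setting of NR0B1, were mostly low in these cells: 10 of 22 passed the filter, 3 were higher and 4 lower in shNR0B1. SRD5A1, a steroid 5-alpha reductase, stood at 6.32, 5.60 and 5.36 FPKM in shNR0B1 and 14.9, 14.7 and 15.5 in shSNW1 (-1.25 ± 0.0552), and the adrenodoxin reductase FDXR differed by -0.53 ± 0.0484. HSD17B4 (0.25 ± 0.0288) and AMH (0.41 ± 0.103) were higher in shNR0B1.

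Pathways in which SNW1 is known as a coregulator were mixed. Of 16 vitamin D and retinoid genes 6 passed the filter, 3 higher and 1 lower in shNR0B1. ALDH1A1, which makes retinoic acid, stood at 26.4, 27.2 and 25.9 FPKM in shNR0B1 and at 60.5, 66.7 and 64.4 in shSNW1 (-1.24 ± 0.0404), and CYP27B1, the activating enzyme of vitamin D, at 3.25, 3.66 and 3.78 FPKM in shNR0B1 and 1.14, 1.37 and 1.25 FPKM in shSNW1 (1.02 ± 0.0663). TXNIP, an inhibitor of thioredoxin, differed by 0.73 ± 0.037 and the retinaldehyde reductase DHRS3 by 0.53 ± 0.0455. The Notch list had 9 of 19 tested members (27 listed) higher and 5 lower in shNR0B1 (median 0.11). NOTCH3 stood at 72.6, 78.2 and 81.4 FPKM in shNR0B1 and at 35.3, 31.1 and 35.5 in shSNW1 (1.17 ± 0.0581), the coactivator MAML2 was higher as well (0.43 ± 0.0763), and the HES family repressors HES7 (-0.67 ± 0.0762) and HES6 (-0.41 ± 0.0744) were lower. TGF-beta and BMP genes had 5 of 23 tested members (28 listed) higher and 11 lower in shNR0B1 (median -0.08). BMP2 differed by -0.92 ± 0.0601, the BMP target ID1 by -0.64 ± 0.0537, PMEPA1, a feedback inhibitor, by -0.64 ± 0.0766 and LTBP1, a latent TGF-beta binding protein, by 0.52 ± 0.0835. LTBP1 passed the filter through shNR0B1 alone. Targets of YAP and TEAD, a list apart from those pathways, were evenly split (8 higher and 8 lower of 18). AMOTL2 differed by -1.19, tissue factor F3 by 1.18, the ectonucleotidase NT5E by -0.75 and CYR61 by -0.56.

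Extracellular matrix and integrin genes, which anchor cells and build basement membranes, were higher in shNR0B1. The list had 20 of 23 tested members (31 listed) higher and 2 lower in shNR0B1 (median 0.57), while 8 of 31 members did not pass the filter. Of the 23, 4 passed through shNR0B1 alone, being under 1 FPKM in every shSNW1 library, so their direction was fixed by the filter. Of the 18 with at least 1 FPKM in all 6 libraries 16 were higher and 1 lower (median 0.52), against 35.1% higher and 35.9% lower of all 10914 such genes. LAMC1, a laminin chain, stood at 288, 305 and 293 FPKM in shNR0B1 and at 149, 155 and 152 FPKM in shSNW1 (0.96 ± 0.0293, limma adjusted p = 2.99e-08). Its shGFP mean of 318 FPKM was near shNR0B1. ITGA5, the fibronectin receptor chain, stood at 33.4, 32.8 and 32.6 FPKM in shNR0B1 and at 15.3, 14.8 and 16.3 in shSNW1 (1.04 ± 0.0394), and ITGA1, a collagen receptor chain, at 2.67, 2.63 and 2.80 FPKM in shNR0B1 and 0.787, 0.863 and 0.801 FPKM in shSNW1 (1.03 ± 0.0555). COL1A1, a fibrillar collagen, stood at 2.75, 2.39 and 2.87 FPKM in shNR0B1 and at 0.394, 0.37 and 0.305 in shSNW1 (1.43 ± 0.0705) and like ITGA1 passed the filter through shNR0B1 alone. It is the gene that this list shares with the fibroblast and endothelial markers. List medians against the control were 0.15 for shNR0B1 minus shGFP and -0.32 for shSNW1 minus shGFP.

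Of the fibroblast and endothelial markers 5 passed the filter, 4 higher and 1 lower. Of these 5, 3 passed through shNR0B1 alone and had to be higher there, and the other 2, COL3A1 and LUM, went in opposite directions. COL3A1 stood at 12.7, 12.0 and 12.0 FPKM in shNR0B1 and at 4.88, 4.95 and 5.44 in shSNW1 (1.12 ± 0.0484), and LUM differed by -0.36 ± 0.066. PDGFRB differed by 0.86 ± 0.0629 and was under 1 FPKM in every shSNW1 library. The summed level of the 12 markers was 24.8 to 26.0 FPKM in shNR0B1 and 15.7 to 17.7 in shSNW1, while the endothelial markers CDH5 and PECAM1 were at or near 0 in both groups. The part of other cells in the matrix genes was not tested. Mesenchymal genes as a list had 8 of 17 tested members (23 listed) higher and 7 lower in shNR0B1 (median -0.02), with LOXL2 at 1.29, N-cadherin CDH2 at 0.85, the syndecan SDC2 at 0.71 and the actin ACTA2 at -0.64. CDH2 passed the filter through shNR0B1 alone. Epithelial genes and keratins had 6 of 15 tested members (27 listed) higher and 7 lower in shNR0B1 (median 0.01). KRT19 stood at 501, 529.5 and 508 FPKM in shNR0B1 and at 1137, 1107 and 1111 FPKM in shSNW1 (-1.12 ± 0.0281), and the claudins CLDN7 (1.13 ± 0.0743) and CLDN4 (0.77 ± 0.05) were higher in shNR0B1.

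Hypoxia and glycolysis genes had 20 of 29 tested members higher and 7 lower in shNR0B1 (median 0.38). P4HA1, a collagen prolyl hydroxylase, stood at 145, 142 and 146 FPKM in shNR0B1 and at 73.5, 77.1 and 74.8 FPKM in shSNW1 (0.93 ± 0.0278). The carbonic anhydrase CA9 stood at 13.2, 11.4 and 14.2 FPKM in shNR0B1 and at 6.07, 5.67 and 6.51 in shSNW1 (0.97 ± 0.0754), and EGLN3, which hydroxylates HIF, at 13.7, 13.3 and 14.9 FPKM in shNR0B1 and 7.28, 6.39 and 6.31 FPKM in shSNW1 (0.97 ± 0.0603). NDRG1, another hypoxia gene, was opposite at 7.34, 7.24 and 7.12 FPKM in shNR0B1 and 14.7, 14.5 and 14.8 FPKM in shSNW1 (-0.93 ± 0.0346). Cholesterol and fatty acid genes had 13 of 27 tested members (29 listed) higher and 5 lower in shNR0B1 (median 0.10). The count lower was 2 without shNR0B1 replicate 3, and 3 without any one of shNR0B1 replicate 2 and shSNW1 replicates 2 and 3. IDI1 of the mevalonate pathway stood at 23.0, 19.3 and 20.3 FPKM in shNR0B1 and at 42.2, 44.5 and 46.1 in shSNW1 (-1.05 ± 0.0602), whereas the fatty acid enzymes FADS2 (0.86 ± 0.0384), ELOVL6 (0.73 ± 0.0423) and SCD (0.39 ± 0.0254) were higher in shNR0B1.

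Clustered and variant histone genes had 13 of 14 tested members (21 listed) higher and 0 lower in shNR0B1 (median 0.39). Most replication-dependent histone transcripts lack poly(A) tails, and near-identical copies may share reads. HIST1H1C, a linker histone, stood at 67.3, 67.1 and 66.1 FPKM in shNR0B1 and at 32.1, 30.0 and 31.7 FPKM in shSNW1 (1.07 ± 0.0328), both above the shGFP mean of 22.7. HIST1H2BC (1.44 ± 0.113), HIST1H2AC (1.00 ± 0.102) and the damage-linked variant H2AFX (0.79 ± 0.0326) were also higher in shNR0B1.

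Genes of ribosome biogenesis were lower in shNR0B1, with 1 of 28 tested members higher and 26 lower in shNR0B1 (median -0.32). WDR43, a factor of the small subunit processome, stood at 30.3, 28.5 and 28.5 FPKM in shNR0B1 and at 61.9, 61.4 and 58.7 FPKM in shSNW1 (-1.03 ± 0.036), and POLR1B, a subunit of RNA polymerase I, at 10.2, 10.1 and 10.4 FPKM in shNR0B1 and 18.7, 18.7 and 18.5 FPKM in shSNW1 (-0.80 ± 0.0326). The shSNW1 libraries of both genes were above the shGFP means of 49.7 and 16.3 FPKM and the shNR0B1 libraries below. RRP9 differed by -0.74 and NOLC1 by -0.63. List medians against the control were -0.33 for shNR0B1 minus shGFP and 0.01 for shSNW1 minus shGFP. Cytosolic ribosomal proteins differed less, with 2 of 34 tested members higher and 17 lower in shNR0B1 (median -0.07), and the largest difference was that of RPL18 (-0.22 ± 0.0352), followed by RPS3 (-0.21), RPL14 (-0.20) and RPL27 (-0.19). Their count higher was 0 without shNR0B1 replicate 3, 5 without shSNW1 replicate 2, and 1 without any one of shNR0B1 replicate 1 and shSNW1 replicates 1 and 3. In the biogenesis list it was 0 without shNR0B1 replicate 3 or shSNW1 replicate 3.

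Cell cycle lists were close to balanced. DNA replication genes had 12 of 33 tested members higher and 11 lower in shNR0B1 (median 0.03), mitosis genes 12 of 32 tested members higher and 14 lower in shNR0B1 (median -0.03), and homologous recombination and Fanconi anemia genes 12 of 26 tested members higher and 8 lower in shNR0B1 (median 0.11). Differences within them ran both ways: the clamp loader RFC3 (-0.68 ± 0.0591) and the clamp PCNA (-0.43 ± 0.0481) were lower in shNR0B1 and the helicase subunit GINS1 (0.49 ± 0.0596) and RRM2 (0.46 ± 0.0435) were higher. The spindle factor TPX2 (-0.66 ± 0.0349), CDC20 (-0.54 ± 0.0344) and NDC80 (-0.44 ± 0.0648) were lower and PRC1, a midzone protein, was higher (0.46 ± 0.0335). RAD51C (-0.57), FANCE (-0.49) and PALB2 (-0.47) were lower and FANCG (0.42) was higher. Against the control, medians were -0.55 for shNR0B1 minus shGFP and -0.62 for shSNW1 minus shGFP in the replication list and -0.39 for shNR0B1 minus shGFP and -0.35 for shSNW1 minus shGFP in the mitosis list. Those contrasts share the control libraries. The count of mitosis genes higher in shNR0B1 was 7 without shNR0B1 replicate 1 and 6 without shSNW1 replicate 3.

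Oxidative phosphorylation subunits were balanced, with 11 of 31 tested members higher and 11 lower in shNR0B1 (median -0.02). The count higher was 7 without shNR0B1 replicate 3. COX5B, a cytochrome oxidase subunit, stood out at 139.7, 148 and 151 FPKM in shNR0B1 and 323, 334 and 332 FPKM in shSNW1 (-1.16 ± 0.0339), with shGFP at 285. The next were NDUFA9 (-0.45), COX5A (-0.43) and SDHB (-0.37). Autophagy and lysosome genes had 15 of 26 tested members higher and 7 lower in shNR0B1 (median 0.14), with ATG16L1 at -0.69, LAMP1 at 0.55 and MCOLN1 at 0.54. Neuroendocrine secretory genes had 6 of 12 tested members (22 listed) higher and 3 lower in shNR0B1 (median 0.24). Beside VGF the named members were the synaptic complexin CPLX2, at 9.23, 9.65 and 10.2 FPKM in shNR0B1 and 3.05, 2.71 and 2.45 in shSNW1 (1.52 ± 0.0647), the prohormone convertase PCSK1 (0.95 ± 0.055) and SNAP25 (0.94 ± 0.0932), which passed the filter through shNR0B1 alone. Metallothioneins and zinc response genes had 1 of 6 tested members (13 listed) higher and 3 lower in shNR0B1 (median -0.29), where MT2A (0.77) and MT1X (-0.69), which share sequence, differed in opposite directions, beside the zinc exporter SLC30A1 (-0.84) and the zinc sensor MTF1 (-0.22).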

How the data were processed

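RNA of 27 libraries was sequenced, of which 6 enter the test. Values are FPKM per gene symbol and library, as deposited by the authors, per the file headers. STAR, featureCounts, DESeq2, Bowtie2, HOMER and build hg19 are named in the submitters' processing notes, without roles. Annotation and strand setting: not given in the sources used here. Low values are whole multiples of 1 read per library, which gave whole reads (tolerance 0.02) for 100% of the 11548 genes tested, and the deposited depth scaling equals median-ratio factors over the 18 knockdown libraries. The test was limma 3.58.1 (R 4.3.3) on log2(FPKM + 1) over 6 libraries with a mean-variance trend and Benjamini-Hochberg adjustment over all tested genes, called at an adjusted p under 0.05. A pseudocount of 1 understates the change of low genes. Scripts were tested on simulated data. Differences against shGFP come from a fit of 12 H460 libraries, shNR0B1, shSNW1, shGFP and shNRF2 with 3 each.

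The groups' members and gene lists were chosen with earlier results of these data known. Named genes are NR0B1, SNW1, RBM45, NFE2L2 and KEAP1, the 15 called genes with the largest difference in each direction (no overlap, at least 5 FPKM in the higher group), and up to 4 called members of each list with the largest difference. The snoRNAs beyond that rule and the 3 genes shown for the endoplasmic reticulum stress element were named after their values were seen. So were NEAT1, MALAT1, DNAJB11, DNAJC3, CD68, KRT7, KRT8, KRT18, EPCAM and VIM. ALAS1, FTL, FTH1, OSGIN1, SQSTM1 and MAFG were likewise named after their values were seen. RefSeq classes were matched by symbol for 98.6% of tested genes. No 2 libraries of a group agreed within sampling noise (chi-square per degree of freedom 1.45 to 2.75 within groups). The NR0B1 peak list was not used. One gene list and some genes that the rule names are not reported here.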

Additional observations from a re-analysis of the deposited data

How the results depend on the processing

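Of the 8188 called genes, every one that an alternative tested kept its direction in it, and all 171 calls of named genes held wherever the gene was tested. NFE2L2, not called in the main result, was called lower under the 3 settings given beside it. The number of genes called was 7618 to 7893 when 1 library was left out, with 3840 to 3997 higher and 3778 to 3935 lower, and 316 to 328 changed by at least 2 fold. With the replicate number as a block 8006 genes were called, but same-numbered libraries do not deviate together (correlations -0.0512, -0.0468 and 0.124), and not every library correlated best with its own number, so the numbers do not pair them. The count of genes with at least 2 fold was 608 with a pseudocount of 0.1 FPKM, 82 with 5 FPKM and 651 with voom on the recovered reads. The median difference of all genes, 0.00314, was -0.0253 with a filter at 5 FPKM, -0.0168 with median-ratio scaling over the 6 libraries and -0.0204 with voom, shifts larger than the SD of 0.00452 over pairs of libraries. RBM45, called in no setting, changed sign to -0.00487 with voom and to -0.00536 without shSNW1 replicate 1, and ranged from -0.00811 to 0.0778 when 1 library was left out. Of 1216 list counts under the alternatives 73 moved by more than 1.5 times. Small read numbers limit single snoRNAs: among the 28 with at least 10 reads in every library, 2 were higher and 24 lower, an alternative chosen after seeing the data, and voom called 3 higher and 106 lower of all.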
